A study of Mus musculus with 12 samples.

Results

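A tumor from a TRAMP mouse was compared with the prostates of TRAMP mice of the same age, 24 weeks, on the same control diet (AIN93M) and with the same strain label, C57BL/6-Tg(TRAMP)8247Ng/J. TRAMP mice carry the T antigens of the SV40 virus under the prostate-specific probasin promoter, so all 3 libraries come from animals with the transgene, which is active in androgen-responsive prostate epithelium. The comparison uses 3 of the 12 libraries of the series, 1 from the tumor and 2 from TRAMP prostates (replicates 0 and 2), and all 24421 genes of the deposited values. The prostates were ventral and dorsolateral lobes, and the lobe of the tumor is not known, so lobe and tumor cannot be told apart. The other 9 libraries entered the statistical model and serve as reference levels. They are 2 TRAMP prostates of 24 weeks on a diet with 0.05% phenethyl isothiocyanate (PEITC), 2 TRAMP prostates of 16 weeks on each diet, and wild type C57BL/6 prostates on control diet, 2 of 24 weeks and 1 of 16 weeks.

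The secretory epithelium of the prostate has tall luminal cells that make seminal proteins under androgen control, above a thin layer of basal cells that rest on a laminin basement membrane. The T antigens bind and disable the retinoblastoma and p53 proteins, which releases the cell cycle in the luminal cells. TRAMP tumors are known to arise both as adenocarcinoma that keeps epithelial genes and as poorly differentiated neuroendocrine tumors that lose them.

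Epcam and Cdh1 were in the tumor near the level of the TRAMP prostates, and the neuroendocrine vesicle markers Chga and Syp were low. Other epithelial genes differed in both directions, as given below for luminal genes and keratins. Epcam, the pan-epithelial adhesion molecule, stood at 504 FPKM (fragments scaled by transcript length and library total) in the tumor against 473 and 494 FPKM in TRAMP replicates 0 and 2. Cdh1, which encodes E-cadherin, stood at 275 against 277 and 233 FPKM. Neither passed the test (limma adjusted p = 0.753 for Epcam and adjusted p = 0.62 for Cdh1). Chga and Syp, which encode the neuroendocrine vesicle proteins chromogranin A and synaptophysin, were at 0.143 and 0.505 FPKM in the tumor and no higher than 0.617 FPKM in the TRAMP prostates. Foxa2, a transcription factor of neuroendocrine TRAMP tumors, was listed at 0.

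A test was run for the 13375 genes whose average over the series was 0.5 FPKM or more. Of these, 1573 genes (11.8%) differed between the tumor and the TRAMP prostates at an adjusted p under 0.05, which is what "called" means throughout. The tumor was higher for 748 genes (5.59%) and lower for 825 genes (6.17%). All differences here and below are on the log2(FPKM + 1) scale. A difference of at least 1, a 2-fold change of FPKM + 1, was reached by 238 of the higher and 115 of the lower genes. A difference of at least 2, a 4-fold change of FPKM + 1, was reached by 25 and 21. The median over all tested genes was -0.01. The tumor has no replicate, and the test assumes that it varies as the groups with 2 libraries do. A fit on the 3 libraries alone, with 1 such pair to measure the spread, called 0 genes with limma, and 2562 of the 13375 tested genes had an unadjusted p under 0.05. The relative depth of the tumor library was 0.698 of the deepest library, which is TRAMP replicate 0, and that of TRAMP replicate 2 was 0.948. The FPKM values do not give the number of reads. The genes named below as higher or lower stayed called without either TRAMP prostate where nothing else is said.

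**Figure D1:**
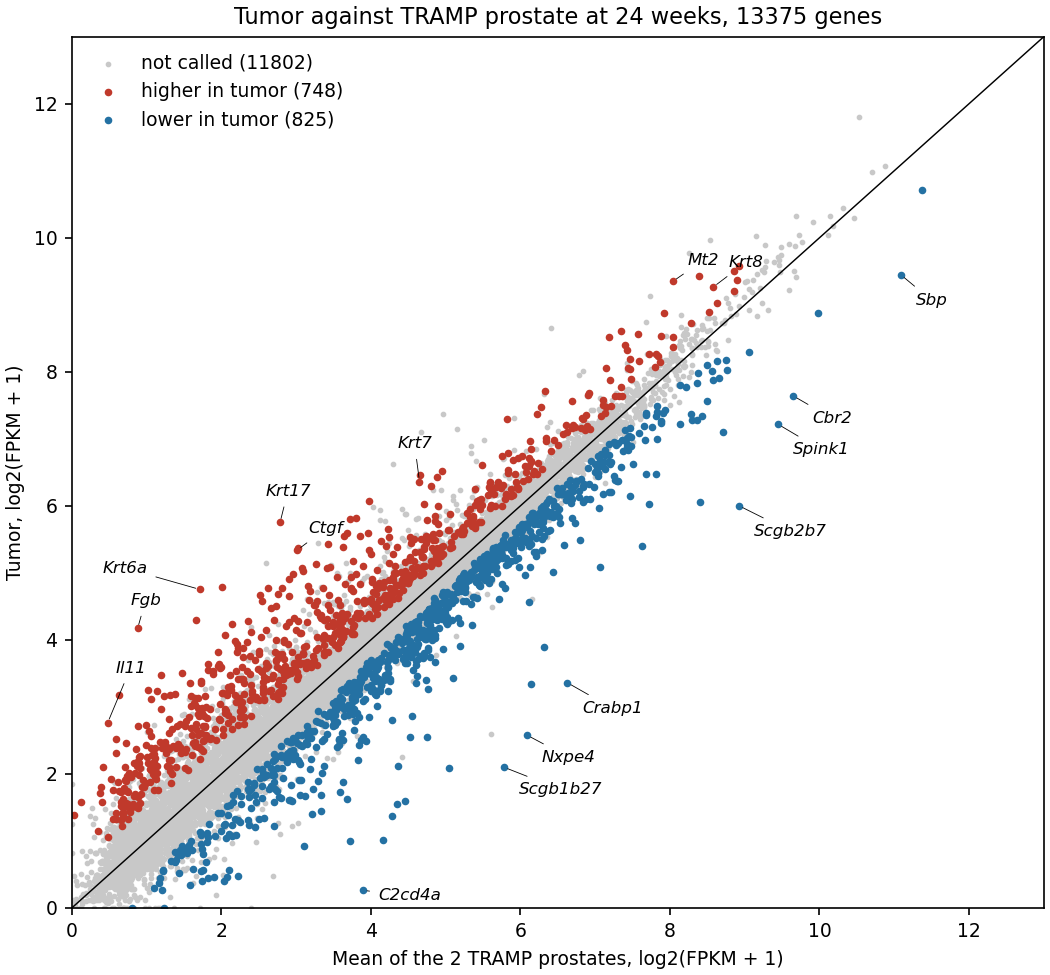
Each point is a tested gene, with the mean log2(FPKM + 1) of the 2 TRAMP prostates on the horizontal axis and the tumor's value on the vertical axis; red points were called higher in the tumor (748), blue points lower (825), and the line marks equal levels. Most genes lie along the line, with keratins and Fgb far above it and secretory genes such as Sbp, Spink1 and the secretoglobins far below.

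Many genes of the secretory product of the prostate were lower in the tumor. Of 25 tested genes of the prostate secretory list, 11 were called lower and 0 higher, and the list's median was -0.45. Sbp encodes spermine-binding protein, a major androgen-dependent secretion of the ventral lobe (chr17:23941672-23945607, GRCm38). It stood at 697 FPKM in the tumor against 2042 and 2324 FPKM in the TRAMP prostates, and at 14577 and 14196 FPKM in wild type prostates of 24 weeks. The tumor was below all 11 other libraries, with a difference of -1.64 (SE 0.14, adjusted p = 0.00166). Its neighbour Sbpl fell in the same way, from 178 and 218 FPKM to 41.3 FPKM (-2.23, SE 0.20, adjusted p = 0.0018).

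Spink1, Trpv6, Agr2 and Abo fell as well. Spink1, a secreted inhibitor of trypsin-like proteases, stood at 148 FPKM against 565 and 858 FPKM (-2.23, SE 0.29, adjusted p = 0.0059). Trpv6, an epithelial calcium channel, stood at 1.65 against 7.49 and 9.02 FPKM (-1.80, SE 0.20, adjusted p = 0.00399). Agr2, a disulfide isomerase that folds mucins, stood at 87.8 against 200 and 250 FPKM (-1.34, SE 0.14, adjusted p = 0.0035). For all 3 genes the tumor was below every other library, and the TRAMP prostates lay between it and the wild type. Abo, a glycosyltransferase that adds blood group sugars, went from 403 and 435 FPKM to 136 FPKM (-1.61, SE 0.17, adjusted p = 0.0036).

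Not every secretory gene was lower. Pbsn, which encodes probasin and whose promoter drives the transgene, stood at 140 FPKM in the tumor and at 15.5 and 74.8 FPKM in the TRAMP prostates. That difference of 1.99 did not pass the test (SE 0.89, adjusted p = 0.188), and it was 0.89 without TRAMP replicate 0 (adjusted p = 0.493) and 3.09 without replicate 2 (adjusted p = 0.043). Clu encodes clusterin, a secreted chaperone of regressing prostate. It stood at 3579 FPKM against 1514 and 1436 FPKM and was not called (adjusted p = 0.157). Msmb, the beta-microseminoprotein, stood at 1041 FPKM in the tumor and at 329 and 978 FPKM in the TRAMP prostates, which differ from each other more than the tumor differs from replicate 2. The list's summed level was 8320 FPKM in the tumor, between the 8150 and 9560 FPKM of the TRAMP prostates, and Clu was the most abundant member in the tumor. In bulk tissue, fewer cells of a type and less RNA per cell cannot be told apart.

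A family of secretoglobins was low in the tumor. Secretoglobins are small secreted proteins that bind steroids and lipids. The mouse Scgb1b and Scgb2b genes, also known as androgen-binding proteins, lie in a cluster on chromosome 7 (31375592 to 34022881, GRCm38). This family was picked after its values were seen. The files hold 20 of its genes, of which 11 were tested, 8 were called lower and 0 higher, and 11 lay below both TRAMP prostates. The median difference of the tested genes was -2.72. The summed level was 147 FPKM in the tumor against 896 and 1150 FPKM in the TRAMP prostates. The most abundant, Scgb2b7, stood at 63.0 FPKM against 427 and 549 FPKM (-2.92, SE 0.28, adjusted p = 0.00239). Scgb1b27 went from 49.4 and 58.8 FPKM to 3.28 FPKM (-3.68, SE 0.64, adjusted p = 0.0134).

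The wild type levels of these 2 genes place them apart from Sbp and Spink1. Scgb2b7 was at 234 and 177 FPKM in wild type prostates of 24 weeks and Scgb1b27 at 5.61 and 7.38 FPKM, so both were lower there than in TRAMP prostates. Scgb2b27 stood at 65.7 FPKM in the tumor, 307 and 372 FPKM in TRAMP prostates, and 68.8 and 64.3 FPKM in wild type prostates. Scgb1b20 was higher in wild type prostates of 24 weeks, at 143 and 59.9 FPKM, than in TRAMP prostates, at 15.8 and 21.6 FPKM, as Sbp was. In the wild type prostate of 16 weeks Scgb1b20 was at 12.1 FPKM, below both TRAMP prostates. The genes are close copies, and reads may be shared among them. The call for Scgb2b20 was lost without TRAMP replicate 2 (adjusted p = 0.0569).

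Crabp1 and Rxrg, which both act in retinoid handling, were among the most reduced genes. Crabp1, which binds retinoic acid in the cytoplasm (chr9:54764748-54773110), stood at 9.26 FPKM in the tumor against 85.7 and 112 FPKM. The difference was -3.27 (SE 0.19, adjusted p = 0.00056), and the other 9 libraries were all above both TRAMP prostates. Rxrg, the gamma form of the retinoid X receptor, stood at 3.33 FPKM against 20.0 and 19.03 FPKM (-2.24, SE 0.13, adjusted p = 0.00056). For both genes the tumor was below all 11 other libraries. Cbr2, a carbonyl reductase, had a large decrease in FPKM, from 777 and 827 FPKM to 199 FPKM (-2.01, SE 0.17, adjusted p = 0.00176).

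The other leading decreases share no single role. Nxpe4 and Nxpe2 are members of the neurexophilin and PC-esterase domain family and lie near each other on chromosome 9. Nxpe4 stood at 4.97 FPKM against 60.0 and 74.9 FPKM (-3.51, SE 0.33, adjusted p = 0.00239), and Nxpe2 at 1.91 against 16.0 and 23.3 FPKM (-2.80, SE 0.41, adjusted p = 0.00782). Their annotated spans overlap, so reads may be shared between them. Kcnk3, a background potassium channel, and Lrrc52, a regulatory subunit of potassium channels, stood at 2.03 and 1.02 FPKM in the tumor against at least 17.1 and 15.3 FPKM in the TRAMP prostates. Kcnk3 was far higher again in wild type prostates of 24 weeks, at 304 and 379 FPKM. Rnf186, a membrane-bound ubiquitin ligase, stood at 13.8 FPKM against 70.6 and 87.5 FPKM (-2.42, SE 0.13, adjusted p = 0.00056). C2cd4a, a nuclear protein gene, stood at 0.199 FPKM against 7.15 and 26.1 FPKM (-3.63, SE 0.60, adjusted p = 0.0109). The 2 TRAMP prostates differ widely for C2cd4a, and its difference was -4.50 without replicate 0 and -2.76 without replicate 2, called both times.

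**Figure D2:**
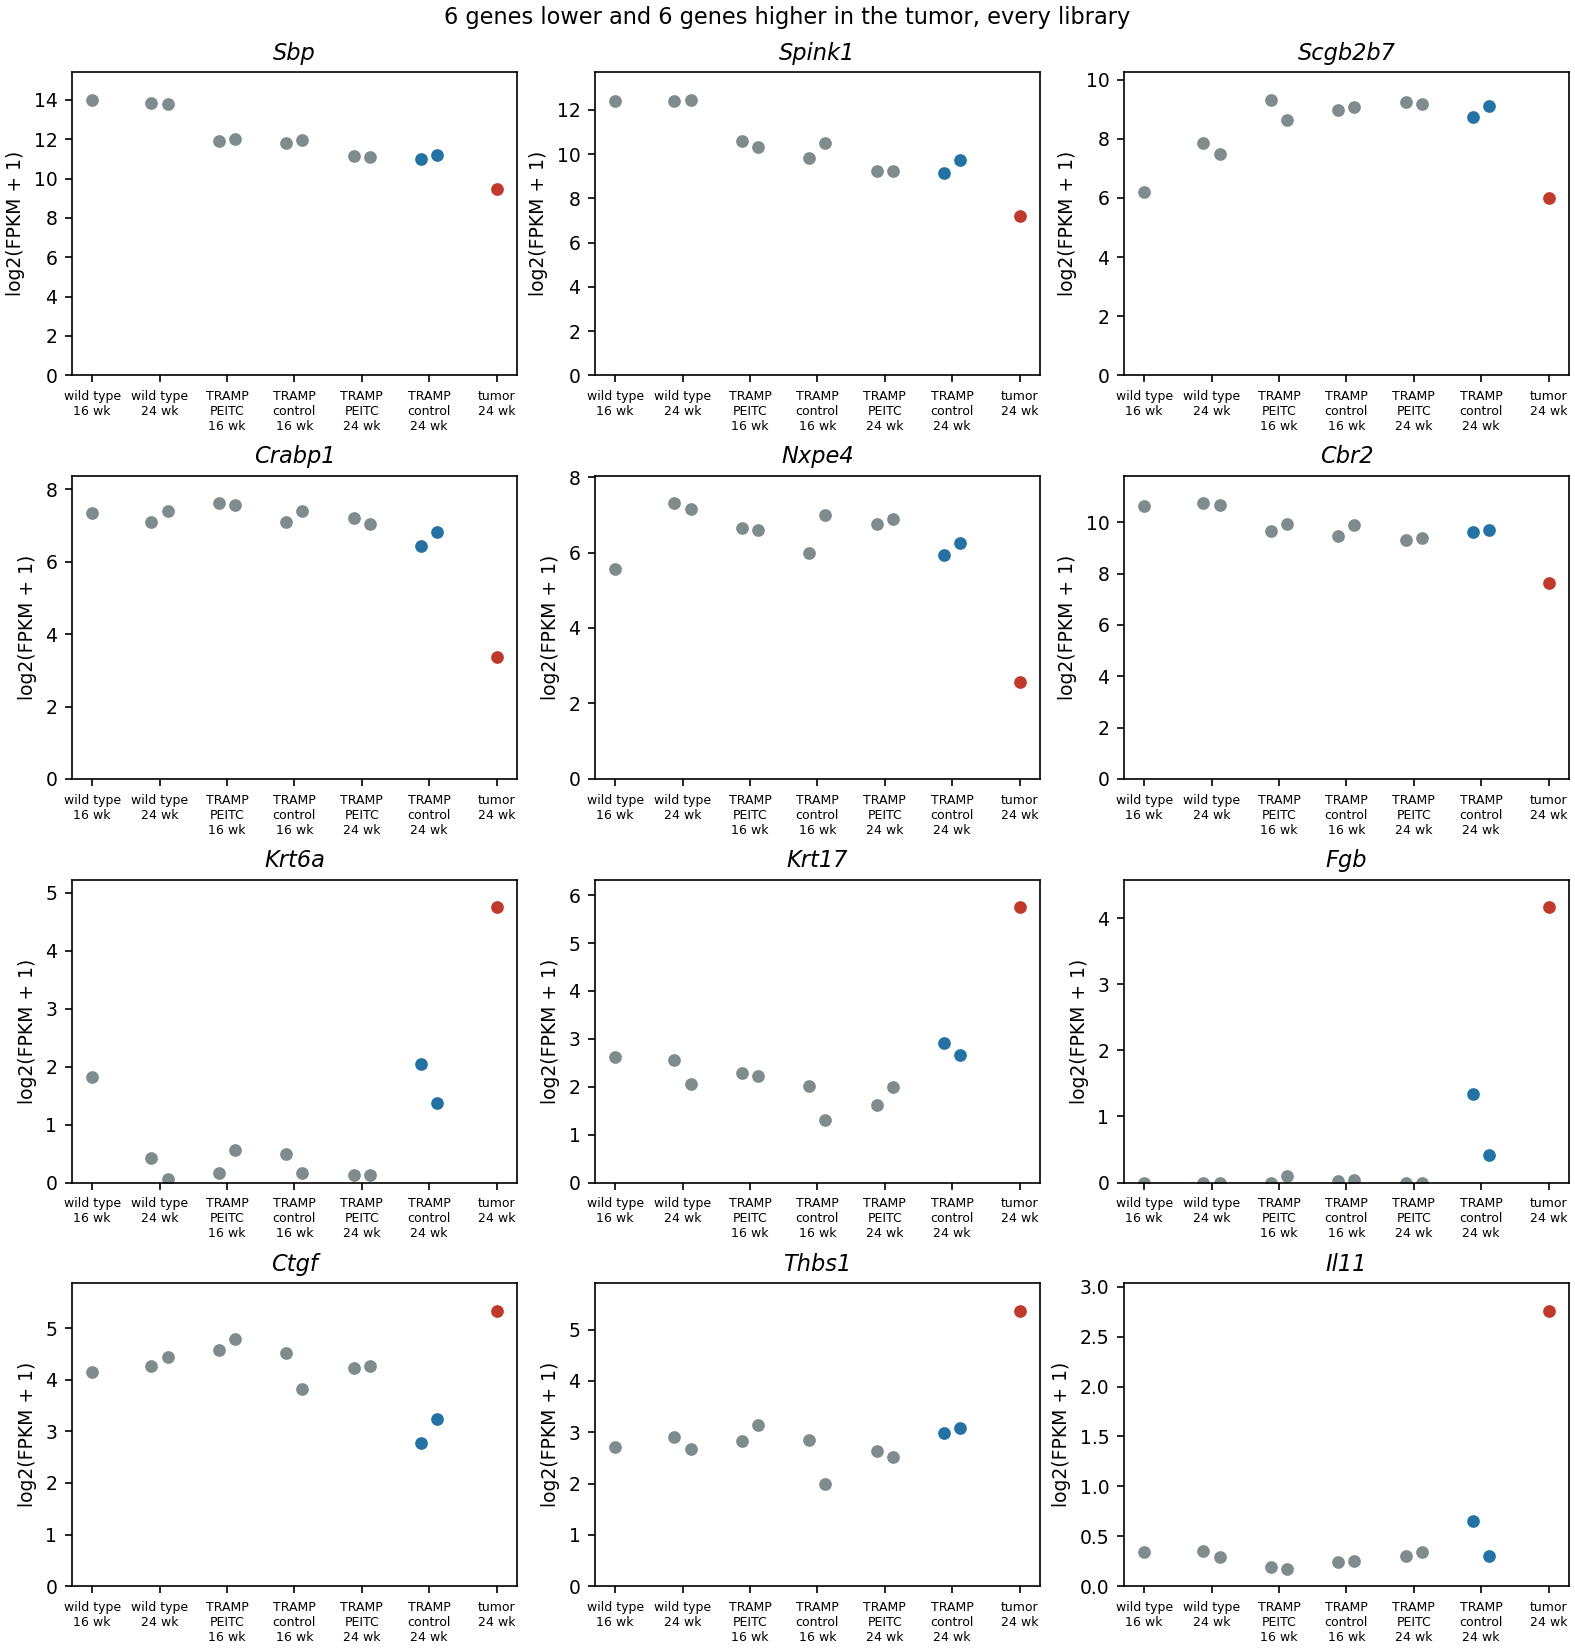
The log2(FPKM + 1) of 12 genes is plotted for each of the 12 libraries, 1 point per library, with the tumor in red, the TRAMP prostates of 24 weeks on control diet in blue and all others in gray. The tumor lies below every other point for Sbp, Spink1, Scgb2b7, Crabp1, Nxpe4 and Cbr2, and above every other point for Krt6a, Krt17, Fgb, Ctgf, Thbs1 and Il11.

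Hoxb13 and Spdef, transcription factors of the luminal cell, were lower, and the keratins Krt8 and Krt7 were higher. Of 20 luminal epithelial genes, 3 were called higher and 3 lower, and the median was 0.25. Hoxb13, the homeobox factor of posterior prostate identity, stood at 261 FPKM against 431 and 433 FPKM (-0.73, SE 0.09, adjusted p = 0.00454). Spdef, an ETS factor of secretory cells, stood at 36.9 against 68.2 and 78.2 FPKM (-0.97, SE 0.14, adjusted p = 0.00763). Among the keratins, Krt8, the main luminal type II keratin, stood at 615 against 377 and 387 FPKM (0.69, SE 0.10, adjusted p = 0.00806). Krt7, a simple-epithelium keratin, stood at 81.3 against 24.6 and 23.6 FPKM (1.71, SE 0.15, adjusted p = 0.00176).

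Several keratins were higher, with Krt6a and Krt17 in the lead. Of 13 tested keratins 5 were called higher and 0 lower, 2 lay below both TRAMP prostates, and the median was 0.69. Krt6a and Krt17 are a type II and a type I keratin that appear in wounded or hyperproliferative epithelium. Krt6a stood at 25.9 FPKM in the tumor against 3.13 and 1.59 FPKM, a difference of 3.04 (SE 0.31, adjusted p = 0.00314). Krt17 stood at 52.8 FPKM against 6.48 and 5.35 FPKM, a difference of 2.97 (SE 0.31, adjusted p = 0.00346). The tumor was above all 11 other libraries for both. Their close relatives Krt6b and Krt16 were too low to test, at 0.62 and 1.03 FPKM in the tumor, and reads may be shared among them.

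The canonical basal cell genes were not called. Krt5, the type II keratin of basal cells, stood at 4.76 FPKM against 4.67 and 7.71 FPKM, and Trp63, the basal cell transcription factor, at 0.451 against 0.408 and 0.762 FPKM (adjusted p = 0.512 for Krt5 and adjusted p = 0.675 for Trp63). Krt5 was at 42.5 and 36.9 FPKM in wild type prostates and Trp63 at 5.01 and 4.74 FPKM, above the tumor and both TRAMP prostates. Of 15 tested basal epithelial genes, 4 were called higher and 0 lower, with a median of 0.23. The 4 were Krt6a, Krt17 and 2 genes of the attachment to the basement membrane. Lamb3, the beta chain of laminin-332, stood at 10.9 FPKM against 3.12 and 2.79 FPKM (1.60, SE 0.14, adjusted p = 0.00198). Itga6, the laminin-binding integrin alpha 6, stood at 27.5 against 14.6 and 12.4 FPKM (0.98, SE 0.11, adjusted p = 0.00405).

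Other leading increases were of varied role. Sprr2a3, a small proline-rich protein of the cornified envelope, stood at 18.6 FPKM against 3.34 and 1.32 FPKM (2.63, SE 0.37, adjusted p = 0.00713). Its copies Sprr2a1 and Sprr2a2 were listed at 0 in all 3 libraries, so the value may stand for several genes. Cda, the cytidine deaminase of the pyrimidine salvage pathway, stood at 26.6 against 4.41 and 1.997 FPKM (2.78, SE 0.38, adjusted p = 0.00644). Alox12, an arachidonate lipoxygenase, stood at 24.3 against 4.58 and 4.92 FPKM (2.14, SE 0.16, adjusted p = 0.00137). Muc1, a membrane mucin, stood at 4.23 against 1.65 and 0.632 FPKM (1.33, SE 0.27, adjusted p = 0.0211). With a pseudocount of 0.1 the calls for Sprr2a3 and Muc1 were lost (adjusted p = 0.0757 for Sprr2a3 and adjusted p = 0.0997 for Muc1).

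Ctgf and Thbs1, matricellular proteins that cells secrete into the matrix to change adhesion and growth factor access, were higher in the tumor. Of 13 tested genes of the YAP target and matricellular list, 5 were called higher and 0 lower, with a median of 0.47. Ctgf, a CCN family protein and a standard readout of the coactivator YAP with its TEAD partners, stood at 39.5 FPKM against 5.88 and 8.496 FPKM (2.33, SE 0.28, adjusted p = 0.00454). Thbs1, which encodes thrombospondin 1, an activator of latent TGF-beta, stood at 40.3 against 6.88 and 7.46 FPKM (2.34, SE 0.30, adjusted p = 0.00546). The reference levels of the 2 genes differ. Ctgf was at 18.2 and 20.6 FPKM in wild type prostates of 24 weeks, whereas Thbs1 was at 6.46 and 5.42 FPKM there. For Ctgf the TRAMP prostates of 24 weeks on control diet were the lowest libraries of the series. The prostates outside the comparison were at 13.2 to 26.6 FPKM.

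Cyr61 (also Ccn1), the closest relative of Ctgf, stood at 32.7 FPKM against 10.1 and 9.19 FPKM (1.66, SE 0.36, adjusted p = 0.0246). Ankrd1, a muscle ankyrin repeat protein and another YAP readout, stood at 3.27 against 0.602 and 0.673 FPKM (1.38, SE 0.31, adjusted p = 0.0293). The call for both was lost when either TRAMP prostate was left out, with adjusted p between 0.06 and 0.0793. TEAD factors are known to bind the letters GGAATG, which read CATTCC on the other strand. Either form occurred in 4153 of 32851 mouse promoters (12.6%) when the 250 bases before the start of transcription were searched on both strands. The Ccn1 promoter is shown because it holds 1 such match, 103 bases before the start. The sequence is that of RefSeq (GRCm38.p6, chr3:145649986-145650235, minus strand), with the match in capitals.
Ccn1: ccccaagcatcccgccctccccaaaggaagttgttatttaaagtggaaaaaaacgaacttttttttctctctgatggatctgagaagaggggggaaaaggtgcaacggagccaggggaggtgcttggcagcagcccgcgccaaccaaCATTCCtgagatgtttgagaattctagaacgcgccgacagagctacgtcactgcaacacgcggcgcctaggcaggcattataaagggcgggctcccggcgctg
The Ankrd1 promoter held 2 matches. The windows before the starts of Tnc and Il11, which rose further, held none.

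Pmepa1 and Il11, both known to be induced by TGF-beta in other settings, were among the largest increases. Pmepa1, a membrane protein that dampens TGF-beta signaling, stood at 26.4 against 5.37 and 4.93 FPKM (2.16, SE 0.37, adjusted p = 0.0131). Il11, a cytokine of the interleukin 6 family, stood at 5.78 against 0.577 and 0.23 FPKM (2.28, SE 0.17, adjusted p = 0.00137). In the other 9 libraries Il11 was no higher than in replicate 0, which makes the tumor the only library with more than 1 FPKM. Tgfb2, a ligand of the pathway, went the other way, from 7.55 and 10.9 FPKM to 2.23 FPKM (-1.65, SE 0.27, adjusted p = 0.011).

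Basement membrane and matrix genes rose in part. Of 30 tested genes of extracellular matrix and basement membrane, 5 were called higher and 1 lower, with a median of 0.59. The median was 1.18 against TRAMP replicate 0 and 0.15 against replicate 2. Tnc, which encodes tenascin C, a matrix protein of wounds and tumors, stood at 10.1 FPKM against 1.07 and 1.51 FPKM (2.28, SE 0.32, adjusted p = 0.00685). Lama5, the laminin alpha 5 chain, stood at 29.5 against 12.1 and 12.6 FPKM (1.19, SE 0.15, adjusted p = 0.00527). Col6a3, a collagen VI chain made by fibroblasts, was the 1 called lower, at 2.41 FPKM against 5.75 and 11.9 FPKM (-1.45, SE 0.33, adjusted p = 0.031). The Col6a3 call was lost without a library outside the comparison, replicate 1 of the PEITC diet at 24 weeks (adjusted p = 0.0534).

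Matrix proteases and their inhibitors gave 5 higher and 1 lower of 23, with a median of 0.65. Mmp3, a stromelysin that degrades matrix, stood at 10.3 FPKM against 2.75 and 2.66 FPKM, and was listed at 0 in both wild type prostates of 24 weeks (1.61, SE 0.32, adjusted p = 0.0199). Its call was lost without either TRAMP prostate (adjusted p = 0.0544 without replicate 0 and adjusted p = 0.0527 without replicate 2). Timp4, an inhibitor of metalloproteases, stood at 70.1 against 143 and 215 FPKM (-1.31, SE 0.22, adjusted p = 0.0121). Plaur, the urokinase receptor that places plasminogen activation at the cell surface, stood at 10.6 against 2.44 and 2.98 FPKM (1.65, SE 0.30, adjusted p = 0.0156). Itgb6, an integrin chain that activates latent TGF-beta, stood at 10.7 against 2.77 and 2.30 FPKM (1.73, SE 0.25, adjusted p = 0.00761).

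Growth factors and receptors gave 6 called higher and 2 lower of 35, with a median of 0.33, which was 0.44 against replicate 0 and 0.11 against replicate 2. Pdgfb, a platelet-derived growth factor chain, stood at 14.7 FPKM against 3.64 and 3.43 FPKM (1.80, SE 0.23, adjusted p = 0.00527). Inhba, the activin A subunit, stood at 3.45 against 0.941 and 0.798 FPKM (1.25, SE 0.19, adjusted p = 0.00806). Egf, the epidermal growth factor gene, stood at 126 FPKM against 235 and 175 FPKM (-0.68, SE 0.14, adjusted p = 0.0221), a call lost in the fit on the 24-week libraries (adjusted p = 0.065). Of the epithelial-mesenchymal transition list, 2 of 22 were called higher and 2 lower, beside 5.59% and 6.17% of all tested genes. Its median was 0.51 against replicate 0 and 0.015 against replicate 2. Snai1 and Itgb6 were higher, and Tgfb2 and Esrp1 lower. Esrp1 stood at 52.2 FPKM against 69.2 and 63.0 FPKM (-0.33, SE 0.08), a call lost without replicate 0. Snai1, a repressor of E-cadherin, stood at 2.34 against 0.375 and 0.728 FPKM (1.12, SE 0.18, adjusted p = 0.011). Vim, which encodes the mesenchymal filament vimentin, stood at 56.7 FPKM in both the tumor and TRAMP replicate 2, and at 23.8 FPKM in replicate 0. Sox4, a developmental transcription factor, stood at 40.6 against 12.3 and 10.4 FPKM (1.75, SE 0.22, adjusted p = 0.00546).

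Among the genes named here the largest increase was that of Fgb, the beta chain of fibrinogen. Fibrinogen is a clotting protein that the liver makes in the acute phase response. Fgb (chr3:83040141-83049863) stood at 17.0 FPKM in the tumor against 1.53 and 0.335 FPKM, and no higher than 0.0698 FPKM in the other 9 libraries. The difference was 3.29 (SE 0.31, adjusted p = 0.00239). Fgg, the gamma chain from the same gene cluster (chr3:83007724-83015049), stood at 7.99 FPKM against 0.862 and 0.281 FPKM (2.54, SE 0.21, adjusted p = 0.00166). Fga, the alpha chain, was too low to test, at 1.04 against 0.0931 and 0.0392 FPKM. The 3 genes had the same order of libraries, with the tumor highest and replicate 0 above replicate 2.

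The liver's own markers give the levels to set beside this. Alb, which encodes albumin, the defining liver transcript, stood at 0.0219 FPKM in the tumor against 0.0153 and 0.0484 FPKM, and Apoa1, an apolipoprotein, at 0.0453 FPKM against 0.0633 and 0. Of 5 tested members of the liver list, 2 were called higher, Fgg and Ahsg. Ahsg, which encodes fetuin A, stood at 7.81 FPKM against 1.71 and 2.61 FPKM (1.49, SE 0.27, adjusted p = 0.0153). The summed level of the list was 35.9 FPKM in the tumor and 17.0 and 34.5 FPKM in the TRAMP prostates.

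STAT3, the factor that turns on fibrinogen genes downstream of interleukin 6 type cytokines, is known to act on fibrinogen promoters through CTGGGA elements, which read TCCCAG on the other strand. These letters occurred in 8869 of 32851 promoters (27.0%) in the 250 bases before the start, searched on both strands, so a match by itself is common. The promoters of Fgg and Fgb each held 1 match, 13 and 91 bases before the start. Both genes were among the 15 largest increases of properly named genes and lie in 1 gene cluster, so these promoters are shown. They are RefSeq sequences (GRCm38.p6), Fgg at chr3:83007474-83007723 on the plus strand and Fgb at chr3:83049864-83050113 on the minus strand, with the match in capitals.
Fgg: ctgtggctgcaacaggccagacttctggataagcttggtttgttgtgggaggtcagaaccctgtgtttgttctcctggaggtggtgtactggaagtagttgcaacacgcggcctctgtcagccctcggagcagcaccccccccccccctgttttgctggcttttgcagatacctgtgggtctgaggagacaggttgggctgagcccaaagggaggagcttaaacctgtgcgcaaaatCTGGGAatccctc
Fgb: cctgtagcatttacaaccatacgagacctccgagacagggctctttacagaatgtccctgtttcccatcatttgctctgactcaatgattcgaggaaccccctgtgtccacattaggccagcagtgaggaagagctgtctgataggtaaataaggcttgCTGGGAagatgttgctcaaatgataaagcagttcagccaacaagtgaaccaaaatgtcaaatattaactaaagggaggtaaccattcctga
The Fga promoter held 1 match as well, 121 bases before its start. The Socs3 window held 0, and of 2 windows for Cp, the plasma copper carrier ceruloplasmin, 1 held a match.

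Genes of the acute phase and of epithelial inflammation, a list that includes Fgb and Fgg, lay mostly above both TRAMP prostates. Of 24 tested, 6 were called higher and 0 lower, the median was 1.08, and 15 had their highest level of all 12 libraries in the tumor, against 20.3% of all tested genes. Osmr, which is not in this list, encodes the receptor for oncostatin M, a cytokine of the interleukin 6 family. It stood at 17.9 FPKM against 4.07 and 2.84 FPKM (2.09, SE 0.33, adjusted p = 0.00916). Slpi, a secreted protease inhibitor of mucosa, stood at 8.38 against 1.43 and 0.979 FPKM (2.10, SE 0.27, adjusted p = 0.00546). Socs3, the feedback inhibitor of this signaling, stood at 31.6 against 11.2 and 4.96 FPKM (1.93, SE 0.44, adjusted p = 0.0297), and its call was lost without replicate 2 (adjusted p = 0.0602).

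The most abundant genes of the acute phase list did not pass the test. Lcn2, an iron-binding protein of inflamed epithelium, stood at 400 FPKM against 115 and 61.3 FPKM, the highest of all libraries (2.24, SE 1.26, adjusted p = 0.289). Its wild type prostates of 24 weeks were 135 and 11.4 FPKM, which shows how far 2 libraries of a group can lie apart for this gene. Saa1, serum amyloid A, stood at 74.6 FPKM against 99.5 and 7.06 FPKM (adjusted p = 0.614). Lrg1, a secreted leucine-rich glycoprotein, stood at 877 FPKM against 543 and 171 FPKM (adjusted p = 0.32). Of 30 tested chemokines, cytokines and NF-kB targets, 3 were called higher and 0 lower (median 0.51), and of 29 interferon-stimulated genes none was called with limma (median 0.05).

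Immediate early genes, which respond within minutes to growth factors or to tissue handling, had a median of 0.78, with 4 of 20 called higher and 0 lower. Ier3, a stress-induced survival gene, stood at 66.2 FPKM against 16.9 and 12.9 FPKM (2.09, SE 0.20, adjusted p = 0.00239). Dusp6, a phosphatase that limits ERK signaling, stood at 10.3 against 3.59 and 4.90 FPKM (1.12, SE 0.22, adjusted p = 0.0192), close to the 9.87 and 11.3 FPKM of wild type prostates. Its call was lost without replicate 0 (adjusted p = 0.058). The part of tissue handling in these values was not tested.

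The cell cycle was already high in the TRAMP prostates, and nearly all of its genes were not called in the tumor. Of 28 DNA replication genes 0 were called with limma, and of 28 mitosis genes 1 was called. Mki67, the proliferation antigen Ki-67, stood at 20.2 FPKM against 15.7 and 12.8 FPKM, with 1.24 and 1.19 FPKM in wild type prostates (0.48, SE 0.22, adjusted p = 0.205). Top2a, the topoisomerase of dividing cells, stood at 30.6 against 31.7 and 25.3 FPKM (adjusted p = 0.781). Cdkn2a, which is high where the retinoblastoma protein is disabled, stood at 131 against 136 and 120 FPKM and below 1 FPKM in wild type prostates (adjusted p = 0.959). The mitosis list had a median of 0.36, and 25 of its 28 genes were above both TRAMP prostates, against 38.5% of all tested genes. Its 1 called gene was Ube2c, the ubiquitin-conjugating enzyme of mitotic exit, at 44.4 against 23.9 and 21.9 FPKM (0.93, SE 0.25, adjusted p = 0.0494), and that call was kept in 7 of 17 alternative analyses.

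Several targets of p53 and regulators of apoptosis were higher in the tumor. Of 19 tested p53 targets 7 were called higher and 0 lower (median 0.29), and of 22 apoptosis regulators 7 were called higher and 0 lower (median 0.24). The lists share Fas and Bax. Among the called p53 targets, Phlda3 and Plk2 lost their call without either TRAMP prostate. Fas lost its call without replicate 2, as did Casp12 of the apoptosis list. Without replicate 0 and without replicate 2, in that order, the difference was 1.17 and 1.37 for Phlda3 and 0.92 and 1.06 for Plk2. For Fas it was 0.99 and 0.58. Phlda3 in the tumor differed from wild type prostates of 24 weeks by 0.05. Trp53inp1, a p53-induced stress protein, stood at 20.4 FPKM against 10.3 and 7.29 FPKM (1.14, SE 0.18, adjusted p = 0.00943). Apaf1, the scaffold of the apoptosome, stood at 7.88 against 4.36 and 4.67 FPKM (0.69, SE 0.11, adjusted p = 0.00983). Tnfrsf1a, the main receptor for tumor necrosis factor, stood at 75.7 against 49.5 and 45.04 FPKM (0.67, SE 0.09, adjusted p = 0.00587). Cdkn1a, the CDK inhibitor p21, stood at 25.6 against 8.52 and 7.66 FPKM (1.55, SE 0.37, adjusted p = 0.0346). The Cdkn1a call was lost without either TRAMP prostate, with an adjusted p of 0.0768 without replicate 0 and 0.0884 without replicate 2.

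Of 17 tested neuroendocrine and neuronal genes, 2 were called higher, and neither is a vesicle gene. Stmn2, a tubulin-binding protein of neurons, stood at 5.57 FPKM against 1.28 and 2.08 FPKM (1.31, SE 0.30, adjusted p = 0.029). Sox2, a stem cell transcription factor, stood at 6.38 against 2.78 and 3.80 FPKM (0.79, SE 0.21, adjusted p = 0.0467), close to the 6.39 and 5.56 FPKM of wild type prostates. Both calls were lost without TRAMP replicate 0 (adjusted p = 0.0893 for Stmn2 and adjusted p = 0.139 for Sox2). The list's median was 0.14 (0.23 against replicate 0 and 0.07 against replicate 2). It was -0.08 among genes with a mean of 5 FPKM or more and -0.14 against the 4 TRAMP prostates of 24 weeks on either diet.

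**Figure D3:**
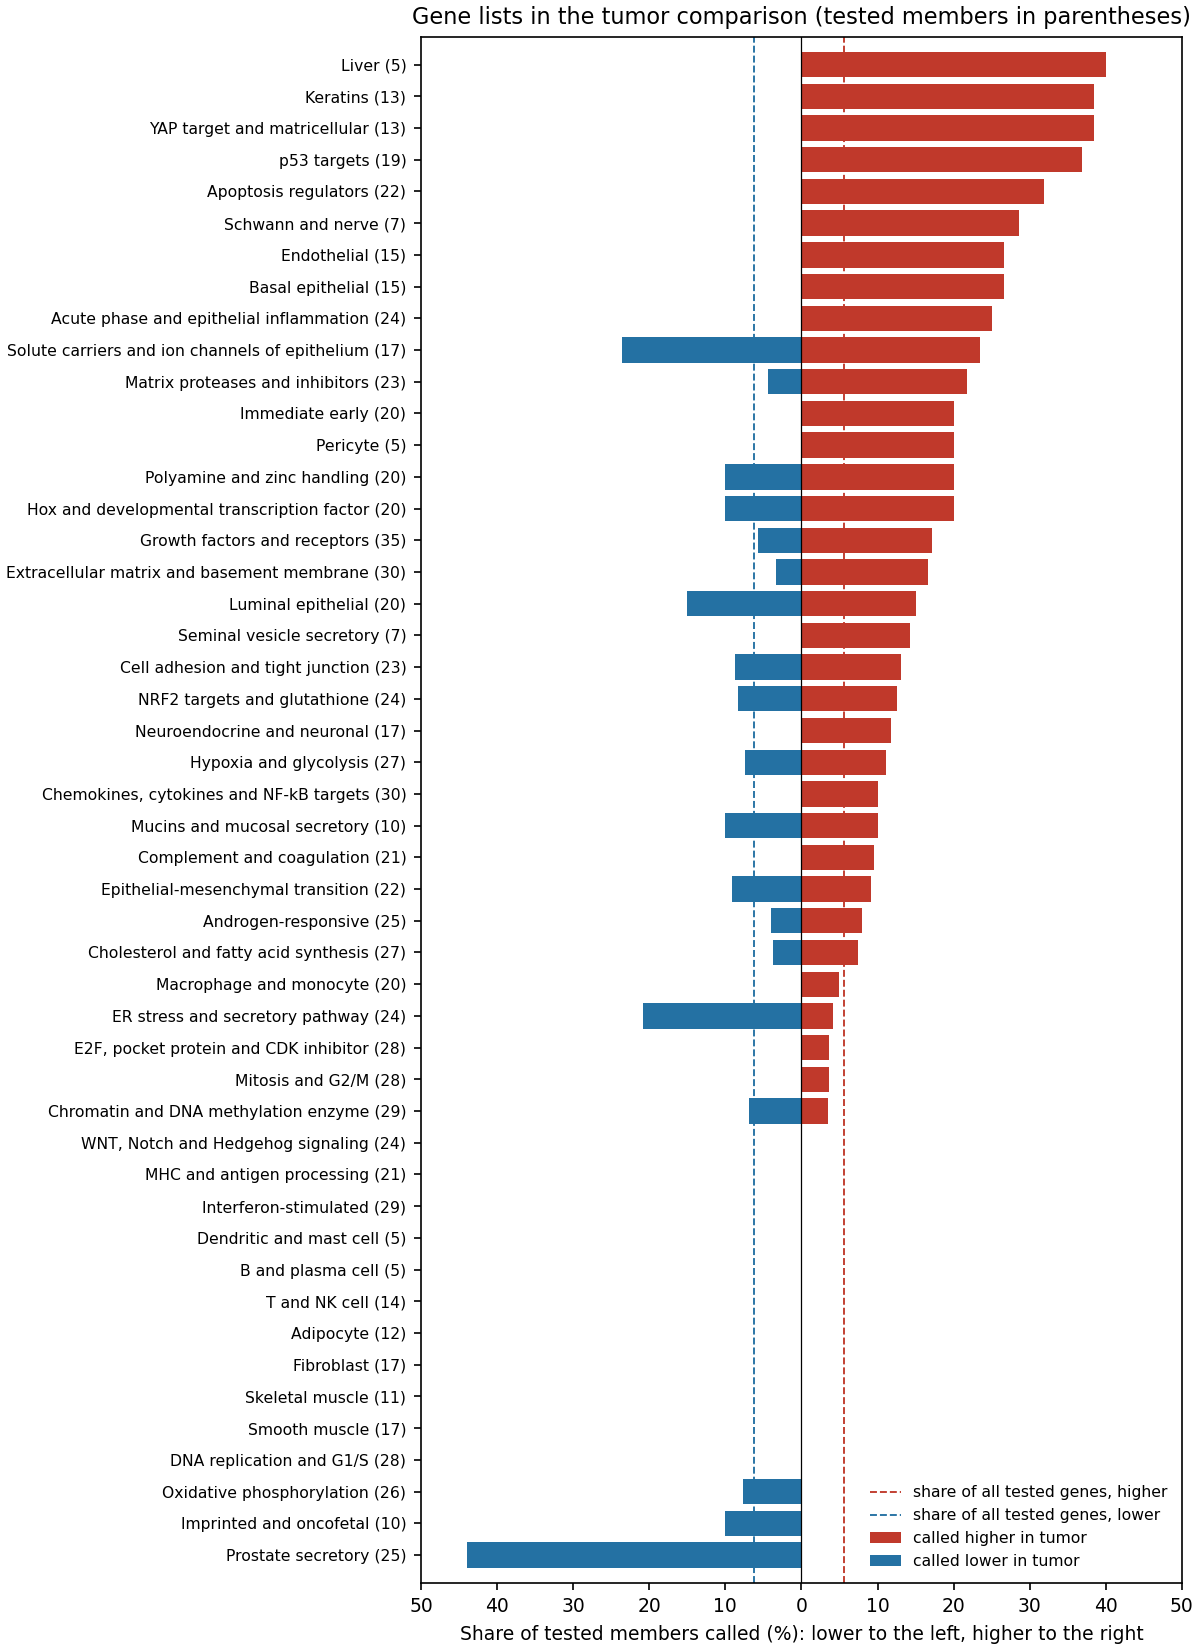
Bars give, for each gene list with at least 5 tested members, the share called higher (red, to the right) or lower (blue, to the left) in the tumor, in percent; dashed lines mark the shares among all 13375 tested genes, 5.59% higher and 6.17% lower. Prostate secretory genes have the longest bar to the left, with 11 of 25, and keratins and matricellular genes are among the longest to the right, with 5 of 13 each.

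The summed levels of fibroblast and of macrophage markers in the tumor lay between those of the 2 TRAMP prostates. Fibroblast markers gave 0 calls of 17 with limma, with a median of 0.91 against replicate 0 and -0.31 against replicate 2. Their summed level was 237 FPKM in the tumor and 117 and 339 FPKM in the TRAMP prostates. Macrophage and monocyte markers gave 1 call of 20, Cd14, a receptor for bacterial lipopolysaccharide, with medians of 0.68 and -0.17. The Cd14 call was lost without either TRAMP prostate (adjusted p = 0.0556 without replicate 0 and adjusted p = 0.13 without replicate 2). They summed to 495 FPKM in the tumor and to 275 and 541 FPKM in the TRAMP prostates. Adipocyte markers gave 0 calls of 12 with a median of -1.21 (-0.58 against replicate 0 and -2.04 against replicate 2), and summed to 124 FPKM against 160 and 369 FPKM. T and NK cell markers gave 0 calls of 14 with a median of -0.29, and smooth muscle markers 0 of 17 with a median of -0.15 (-0.04 against replicate 0 and -0.21 against replicate 2).

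The summed levels of pericyte, nerve, dendritic and mast cell, B cell, neutrophil and endothelial markers lay above both TRAMP prostates. None of the B cell or neutrophil markers was called by limma. The B and plasma cell list had a median of -0.09, with 2 of 5 tested members below both TRAMP prostates and 1 above. Of the 2 tested neutrophil markers, 1 lay above both TRAMP prostates and 1 below. Pericyte markers, of the cells that wrap capillaries, summed to 29.0 FPKM in the tumor against 14.5 and 13.5 FPKM, with 1 of 5 called higher and medians of 0.51 and 0.12 against replicates 0 and 2. That call, Mcam, an adhesion molecule of vessel walls, was lost without replicate 2 (adjusted p = 0.0791). Schwann cell and nerve markers summed to 106 against 87.6 and 78.2 FPKM, with 2 of 7 called higher. Dendritic and mast cell markers summed to 22.2 against 9.38 and 15.9 FPKM, with 0 of 5 called by limma and medians of 0.92 and 0.34.

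Endothelial markers were the set with the most calls among these. Of 15 tested, 4 were called higher and 0 lower, the median was 0.78, and 12 had their highest level of all libraries in the tumor. They summed to 74.3 FPKM in the tumor, against 32.1 and 43.1 FPKM in the TRAMP prostates and 17.0 to 44.5 FPKM over all 11. Emcn, which encodes the venous and capillary sialomucin endomucin, stood at 7.35 FPKM against 1.88 and 2.35 FPKM (1.43, SE 0.27, adjusted p = 0.0171). Kdr, the main receptor for vascular endothelial growth factor, stood at 2.32 against 0.453 and 0.714 FPKM (1.07, SE 0.20, adjusted p = 0.0171). Pecam1, a junction protein of all endothelium, stood at 7.48 against 3.09 and 3.98 FPKM and was not called (adjusted p = 0.133). The calls for Emcn, Kdr, Eng and Flt1 were lost without replicate 0, with adjusted p from 0.0546 to 0.0753. The part of vessels or other stroma in the genes above was not tested.

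**Figure D4:**
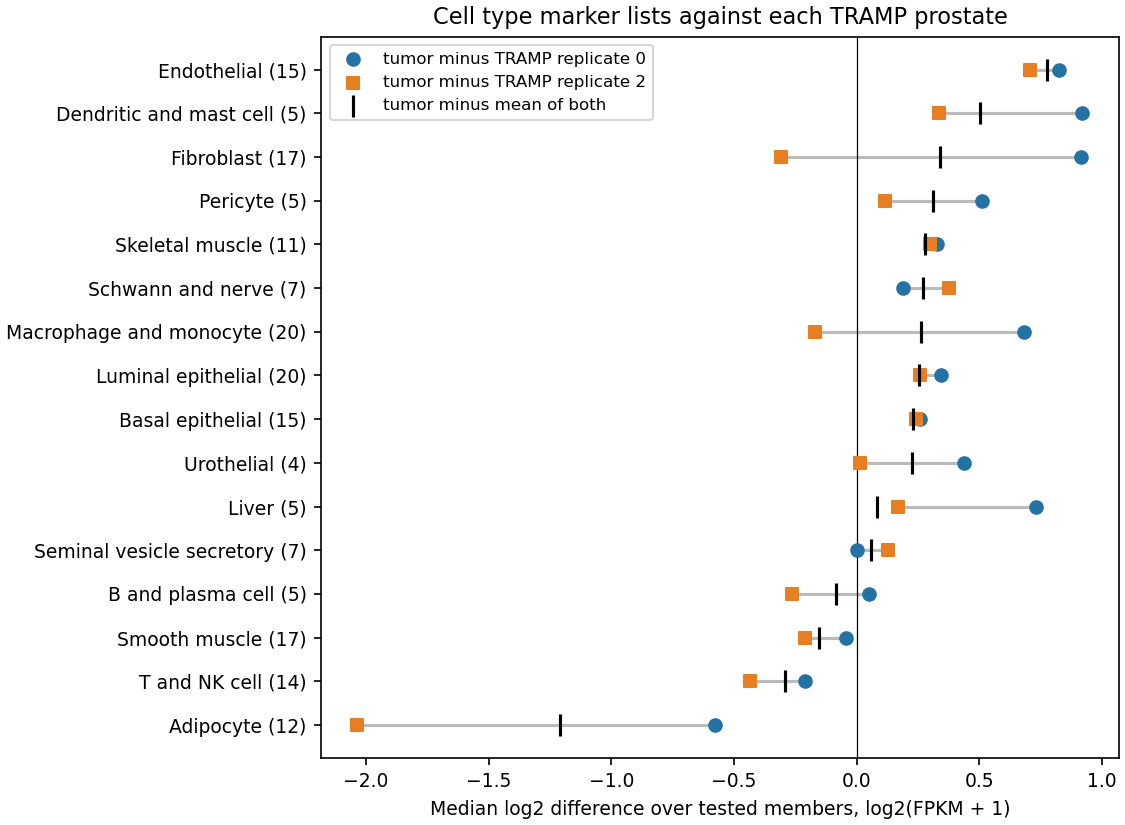
For each list of cell type markers with at least 4 tested members, the median log2 difference of the tumor from TRAMP replicate 0 (blue circles), from replicate 2 (orange squares) and from the mean of both (black bars) is plotted. Endothelial medians lie at 0.83 and 0.71, whereas the fibroblast and macrophage medians lie on opposite sides of 0.

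Zinc and metal handling differed in both directions. The metallothioneins Mt2 and Mt1, which store zinc and copper, had 2 of the largest increases in FPKM. Mt2 stood at 652 FPKM against 338 and 204 FPKM (1.31, SE 0.24, adjusted p = 0.0151), and Mt1 at 688 against 388 and 289 FPKM (1.04, SE 0.15, adjusted p = 0.00763). Wild type prostates of 24 weeks were at 660 and 688 FPKM for Mt2, and Mt2 in the tumor differed from them by -0.05. Slc39a4, a zinc importer, stood at 21.2 against 4.48 and 6.34 FPKM (1.81, SE 0.41, adjusted p = 0.03), a call lost without replicate 0 (adjusted p = 0.0938). Odc1, the first enzyme of polyamine synthesis, for which the prostate is known, stood at 43.7 FPKM against 90.6 and 135 FPKM (-1.32, SE 0.29, adjusted p = 0.0278), and its call was lost without replicate 2 (adjusted p = 0.0703).

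The secretory pathway of the endoplasmic reticulum was lower in part. Of 24 tested genes 5 were called lower and 1 higher, with a median of -0.32 (-0.17 against replicate 0 and -0.43 against replicate 2), and 17 lay below both TRAMP prostates, against 41.0% of all tested genes. Sdf2l1, a chaperone cofactor of the reticulum, stood at 71.0 FPKM against 115 and 162 FPKM (-0.93, SE 0.18, adjusted p = 0.0188). Herpud1, which serves the degradation of misfolded proteins, stood at 127 against 199 and 255 FPKM (-0.82, SE 0.19, adjusted p = 0.033), a call lost without replicate 2 (adjusted p = 0.0833).

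Metabolic lists had calls in both directions, at shares to be read against the 11.8% of all tested genes. Oxidative phosphorylation genes gave 2 called lower of 26 (median -0.04), and hypoxia and glycolysis genes 3 higher and 2 lower of 27 (median 0.08). Me1, the malic enzyme that supplies NADPH for lipid synthesis, stood at 29.5 FPKM against 12.2 and 9.39 FPKM (1.38, SE 0.20, adjusted p = 0.00763). Hmgcs1, an early enzyme of cholesterol synthesis, rose (17.4 against 9.76 and 9.69 FPKM, adjusted p = 0.00587), whereas Dhcr7, the last enzyme of that pathway, fell (8.62 against 14.8 and 15.8 FPKM, adjusted p = 0.0121). Targets of NRF2, the factor that PEITC is known to activate, gave 3 higher and 2 lower of 24 (median 0.09). Among the higher, Gpx2 stood at 47.4 against 17.5 and 7.97 FPKM (1.91, SE 0.46), a call lost without replicate 2. Akr1b8 stood at 26.4 against 15.5 and 9.71 FPKM (1.05, SE 0.24). Gclc, the catalytic subunit of glutathione synthesis, stood at 12.6 against 23.6 and 19.8 FPKM (-0.73, SE 0.12, adjusted p = 0.0115).

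Set beside the wild type prostates of 24 weeks, the genes of the tumor fell into several patterns. The TRAMP prostates enter both differences, so tumor against TRAMP and TRAMP against wild type are not independent, and the levels are given side by side only. Sbp, Spink1, Sbpl and Trpv6 went down from wild type to TRAMP prostate and further down to the tumor. Crabp1 and Rnf186 lay closer to the wild type level in TRAMP prostates than in the tumor. Krt6a, Fgb and Alox12 went up at both steps, and Krt7, Krt17, Thbs1 and Il11 were near the wild type level in TRAMP prostates. Lamb3, Ctgf and Mt2 were lower in TRAMP prostates than in wild type prostates, and the tumor was near or above the wild type level. Cdkn2a and Mki67 separated wild type from TRAMP prostate and were not called between TRAMP prostate and tumor.

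**Figure D5:**
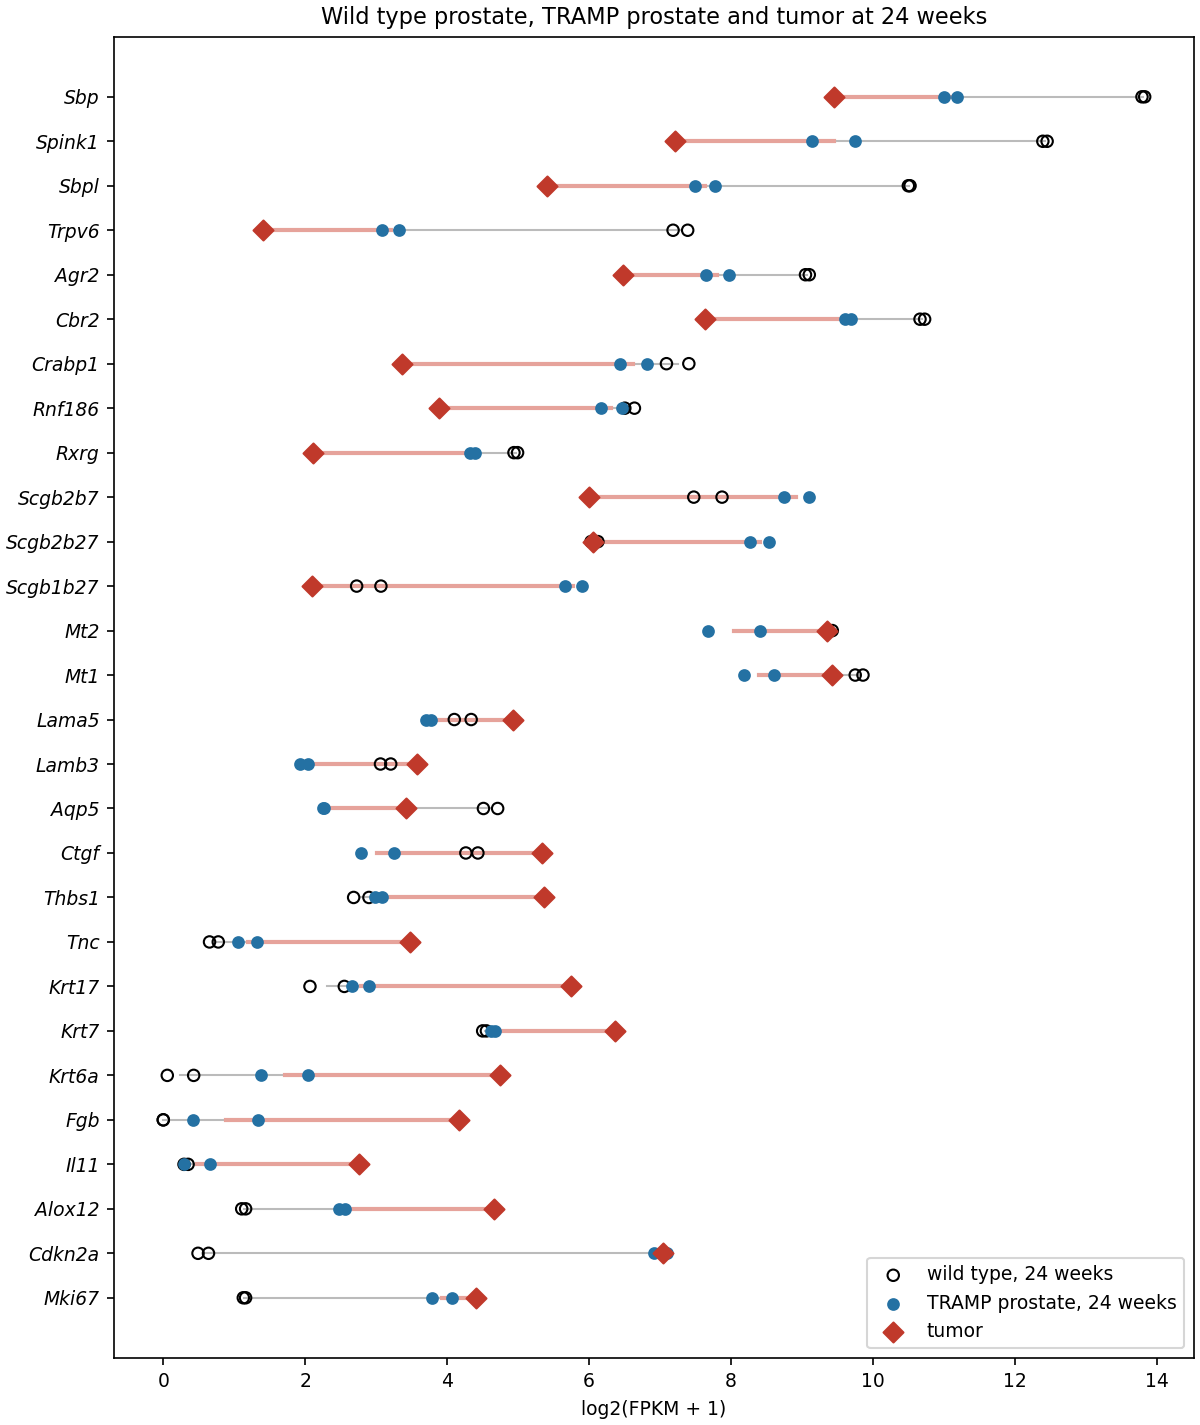
The log2(FPKM + 1) of 28 genes is plotted on the horizontal axis for the wild type prostates of 24 weeks (open circles), the TRAMP prostates of 24 weeks on control diet (blue circles) and the tumor (red diamonds), with lines joining the group means. Sbp, Spink1, Sbpl, Trpv6 and Agr2 move left from wild type through TRAMP prostate to tumor. Scgb2b7, Scgb2b27 and Scgb1b27 lie furthest right in the TRAMP prostates. Cdkn2a in the tumor overlaps the TRAMP prostates.

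Most called genes were extreme over the whole series. Of the 748 called higher, 683 had their highest level of all 12 libraries in the tumor, and of the 825 called lower, 772 had their lowest there. Among all tested genes the tumor was highest for 2710 (20.3%) and lowest for 3130 (23.4%). The remaining 65 and 53 called genes lay within the range of the other libraries, among them Mt1, Mt2, Sox2, Dusp6, Aqp5 and Scgb2b27.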

How the data were processed

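RNA was measured by sequencing of 12 mouse prostate libraries. The deposited values are FPKM per gene and library, aligned to mm10 per the submitters' processing notes, which list featureCounts, HISAT2, DESeq2 and Picard but no versions and no roles. The annotation, the strand setting and the library totals were not given in the sources used here, so only a relative depth could be read, from the steps between low values. Gene positions came from GENCODE M21 (GRCm38), matched by symbol for 23376 genes (95.72%); Ctgf and Cyr61 were not matched.

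FPKM values were converted to log2(FPKM + 1), a scale that understates changes of low genes. Genes averaging 0.5 FPKM or more (13375) were tested with limma 3.58.1 (R 4.3.3) on all 12 libraries, with 7 group means, 5 residual degrees of freedom, an intensity trend, two-sided tests and Benjamini-Hochberg adjustment over all tested genes. Adjusted p under 0.05 was called. P-values measure the spread between these libraries, which the labels do not tie to separate animals. On simulated data, 82% of genes changed by -1 on the log2 scale were recovered and 13 unchanged genes were called. The simulated tumor was given the spread that the model assumes. The simulation therefore cannot show how often unchanged genes are called if a real tumor varies more than that.

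Named genes are the 15 largest called changes and the 5 largest differences in FPKM of called genes, in each direction. Gene models without a proper name, such as Gm or Rik models, were left out of both. The leading called members of each of 52 gene lists and a few fixed genes were added. Others are said to be chosen after their values were seen or stand as unchanged or low relatives beside them. A few genes the rule gave are not reported here. The members and lists were chosen with earlier results of these data known. Promoters were the 250 bases before the RefSeq start. The transgene was not analysed here. Figures used Python 3.11.15 and matplotlib 3.10.9.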

Additional observations from a re-analysis of the deposited data

How the results depend on the processing

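No paired analysis was possible because the tumor shares no replicate number with the TRAMP prostates. The 17 other analyses changed the pseudocount, the filter, the scaling, the trend, a GC and length correction and the libraries fitted; 2 of them were chosen after seeing the data. No called gene among the 145 named and tested changed direction in any. The calls numbered 0 (0 higher and 0 lower) in the fit on the 3 libraries alone, 2486 (1224 higher, 1262 lower) against the 4 TRAMP prostates of 24 weeks on either diet, and 2911 (1380 higher, 1531 lower) against the 4 TRAMP control-diet prostates of both ages. The fit on the 24-week libraries called 535 genes lower. Leaving out 1 library gave 1050 to 1516 calls, 484 to 682 higher and 549 to 834 lower; 668 genes were called both without TRAMP replicate 0 and without replicate 2. The lowest count came without TRAMP replicate 0, and the lowest count of lower genes without replicate 1 of the PEITC diet at 24 weeks. Of the 130 named genes that were called, 33 lost their call with no filter on low values and 28 in the fit on the 24-week libraries. Named genes also lost their call when either TRAMP prostate was left out. Those that lost it without replicate 1 of the PEITC diet at 24 weeks include Sox2, Cd14, Socs3, Ankrd1, Slc39a4, Herpud1 and Fas. Without wild type replicate 0 of 24 weeks 9 named genes lost their call, among them Ube2c and Sox2.

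Genes that were not called changed sign in some analyses, and the cause was not tested. Without TRAMP replicate 0 and without replicate 2, in that order, Krt5 was at -0.596 and 0.023, Trp63 at -0.281 and 0.043, Top2a at 0.265 and -0.050, Cdkn2a at 0.127 and -0.055, Cdh1 at 0.240 and -0.006, Saa1 at 3.228 and -0.412 and Nqo1 at -0.036 and 0.448. Chga was at -0.019 with the GC and length correction, -0.885 against the 4 prostates of 24 weeks and -0.014 against those of both ages. Top2a was at -0.045 and -0.010 in these last 2 analyses. Against both ages Syp was at 0.015 and Epcam at -0.017; Epcam was at -0.065 with quantile normalization. Depth in reads is not known, and genes under about 1 FPKM rest on the fewest fragments.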

Other observations

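A few called genes of roles not described above had values a reader may want. Hoxa9 and Hoxa10, homeobox genes of the posterior body axis, stood at 12.6 and 27.5 FPKM in the tumor against no more than 4.88 and 13.6 FPKM in the TRAMP prostates (limma adjusted p = 0.0244 for Hoxa9 and adjusted p = 0.0265 for Hoxa10), while Hoxb13 was lower; without TRAMP replicate 0 their adjusted p was 0.0776 and 0.0783. Hdac9, a class II histone deacetylase, stood at 4.88 FPKM against 15.8 and 12.2 FPKM (-1.34, SE 0.25, adjusted p = 0.0166), and its adjusted p was 0.053 without TRAMP replicate 0. Aqp5, a water channel of secretory epithelium, stood at 9.67 FPKM against 3.77 and 3.81 FPKM (1.16, SE 0.11, adjusted p = 0.00239), and at 25.2 and 21.8 FPKM in wild type prostates. Scnn1a, a subunit of the epithelial sodium channel, stood at 62.6 FPKM against 27.3 and 30.6 FPKM (1.09, SE 0.17, adjusted p = 0.00938).

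Svs2, a seminal vesicle secretory protein, was listed at 0 and 0.042 FPKM in the TRAMP prostates and at 1.63 FPKM in the tumor. In wild type prostates it was at 1.96 and 3.04 FPKM at 24 weeks and at 3095 FPKM at 16 weeks. Its relative Svs4 was at or below 0.163 FPKM in the 3 TRAMP libraries compared. Chga was at 12.4 FPKM in 1 TRAMP prostate on PEITC diet, replicate 1 of 24 weeks, and at 0.143 FPKM in the tumor.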
